A study of Mus musculus with 36 samples.

Results

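The 10 genes described here encode chondroitin sulfate proteoglycans, tenascins and a link protein, and they were taken from the 52636 genes of the count table by name, a rule that uses no measured value. Cspg4 (NG2), Cspg5 (neuroglycan C) and Ptprz1 (a receptor tyrosine phosphatase) encode core proteins that span the cell membrane. Vcan (versican), Ncan (neurocan), Acan (aggrecan) and Bcan (brevican) encode the lecticans, which are secreted. Hapln1 encodes a link protein, and Tnc and Tnr encode tenascin-C and tenascin-R. All 10 were in the table.

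Chondroitin sulfate proteoglycans carry long sulfated sugar chains on a core protein. Lecticans bind hyaluronan at one end and tenascins at the other, link proteins hold the hyaluronan bond in place, and the assembly forms matrix around many neurons and synapses of the central nervous system. The same molecules are known for limiting the growth of axons in scars of the nervous system, while in skeletal muscle NG2 is known from pericytes, the cells that wrap small vessels.

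RNA was measured by RNA-seq in cells sorted by fluorescence from the diaphragm, pectoralis, forelimb and hindlimb muscles of S100β-GFP;NG2-dsRed mice. All groups carried both transgenes, with GFP driven by the S100b promoter and dsRed by the Cspg4 promoter. The double-labelled group was taken as perisynaptic Schwann cells (PSCs), the glia that cap the neuromuscular junction, and was set beside cells with GFP only (S100β-GFP+) and cells with dsRed only (NG2-dsRed+). Each library came from 1 mouse, and whether libraries of different groups came from the same mouse is not given. The labels give postnatal day 15 as the youngest age and a last day that runs from 21 to 46 down the list of libraries, while the methods of the study give days 15 to 21, so the age of a single library is not settled. Of 36 labelled libraries the table held 27, which were 9 of PSCs, 8 of the S100β-GFP+ group and 10 of the NG2-dsRed+ group. After removing failed samples, the study counts the same numbers of PSC and NG2-dsRed+ replicates but fewer S100β-GFP+ ones. The S100β-GFP+ libraries that it kept are not named. A library is called here by its number in the labels.

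The libraries held 5221655 to 9592875 counts on genes. Gene positions are those of GRCm38 in GENCODE M21. Levels are given as CPM, counts scaled to a common library total after TMM normalisation. A gene was called changed at a Benjamini-Hochberg adjusted p under 0.05 in edgeR's quasi-likelihood test over 15330 genes, in one fit of the 3 groups. In sorted bulk samples, fewer cells of a type and less RNA per cell cannot be told apart. Among PSC libraries, 2 stood apart. Library 18 had counts on 14616 genes, against 20203 to 22533 in the other PSC libraries, and library 31 had 4694 CPM on 10 cartilage and tendon markers, against 7.75 to 95.8 CPM in the other 8. Defining Schwann cell genes (7 genes, Sox10 and S100b among them, the last being the gene whose promoter drove GFP) summed to 1419 to 2064 CPM in PSC libraries, to 35.6 to 193 CPM in S100β-GFP+ libraries and to 18.9 to 61.3 CPM in NG2-dsRed+ libraries. The S100β-GFP+ libraries had a median of 26954 CPM on 8 fibroblast markers, against 949 CPM in PSC libraries and 6789 CPM in NG2-dsRed+ libraries, together with 1499 to 3669 CPM on 8 myelin genes. Pericyte and smooth muscle markers (8 genes) summed to 6648 to 14787 CPM in NG2-dsRed+ libraries and to at most 1500 CPM in the others. The S100β-GFP+ libraries are named by their label only, since fibroblast markers were higher in them than Schwann cell markers.

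Of the 10 genes, 5 were higher in PSCs than in the S100β-GFP+ group (Cspg5, Ptprz1, Ncan, Acan and Hapln1) and 2 were lower (Vcan and Tnc). Over all genes tested, 47% were called, 22.9% higher and 24.1% lower. The same 5 were higher in PSCs than in the NG2-dsRed+ group, and the other 3 tested (Cspg4, Vcan and Tnc) did not pass the threshold, against 44% of all genes called, 20.9% higher and 23.1% lower. In S100β-GFP+ cells against NG2-dsRed+ cells 4 of the 7 tested were higher (Vcan, Tnc, Ncan and Ptprz1) and the other 3 did not pass, against 33.3% of all genes called, 18.1% higher and 15.2% lower. No tested gene of the 10 had all S100β-GFP+ libraries above or below all NG2-dsRed+ libraries, which was the case for 7.21% and 4.38% of all genes, or all PSC libraries below all NG2-dsRed+ libraries, which was the case for 8.83%. Of all genes, 13.9% were higher in PSCs than in both other groups. The calls of Acan and Hapln1 came from 1 library in large part, as given below. Bcan and Tnr had too few counts to pass the filter. Ncan and Hapln1 passed it mainly through PSC libraries, with 7 of 9 and 6 of 9 PSC libraries over the 1.44 CPM it asks for (here CPM of the library total before TMM scaling) but 1 and 2 of the other 18 libraries, so that a difference was built into their passing.

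**Figure D1:**
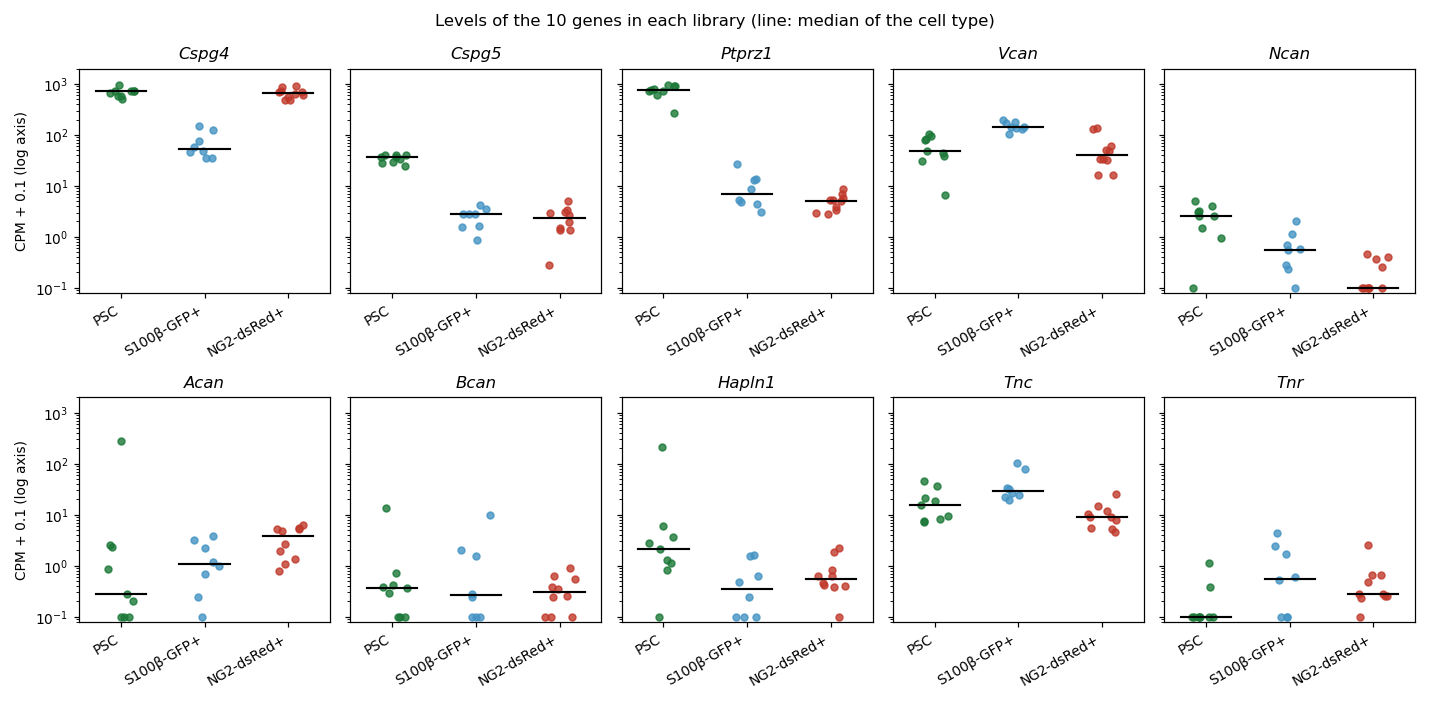
Each point is 1 library (9 PSC, 8 S100β-GFP+, 10 NG2-dsRed+), the vertical axis is CPM plus 0.1 on a log axis, and the line is the median of the group. Cspg5 and Ptprz1 in PSCs lie above every library of the other groups, Vcan is highest in S100β-GFP+ cells, and a single PSC library stands far above the rest for Acan and for Hapln1.

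Ptprz1 (ENSMUSG00000068748, chr6:22875502-23052916) had the largest fold differences between PSCs and the other groups among the 10 genes that were tested. Its product is a receptor phosphatase whose outer part carries chondroitin sulfate and binds pleiotrophin and tenascins. Its level was lowest at 266, median 763 and highest at 931 CPM over the 9 PSC libraries, 2.96, 6.93 and 26.9 CPM over the 8 S100β-GFP+ libraries, and 2.66, 5.06 and 8.50 CPM over the 10 NG2-dsRed+ libraries. No PSC library overlapped with another group, as was the case for 5.24% of all genes beside the S100β-GFP+ group and 5.08% beside the NG2-dsRed+ group. The mean was 737 ± 205 CPM (SD, n = 9) in PSCs, 74.8-fold over S100β-GFP+ cells (log2 fold change 6.23, SE 0.41, adjusted p = 5.47e-13 in edgeR) and 151-fold over NG2-dsRed+ cells (7.23, SE 0.39, adjusted p = 6.86e-15).

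Among PSC libraries, library 18 was lowest for Ptprz1 and the other 8 lay between 612 and 931 CPM. S100β-GFP+ cells had 2.01-fold more Ptprz1 than NG2-dsRed+ cells (log2 fold change 1.01, SE 0.33, adjusted p = 0.0193 in edgeR), but 4 of the 8 libraries lay within the NG2-dsRed+ range. The highest S100β-GFP+ library for Ptprz1, library 33, also had the highest sum of Schwann cell markers of its group (193 CPM), and whether that took part in the difference was not tested. Without library 33 the difference was 0.61 on the log2 scale and missed the threshold (adjusted p = 0.126). Ptprz1 and Cspg5 are in the list of PSC-enriched genes that the study drew from its libraries, so their direction here is not independent evidence.

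Cspg5 (ENSMUSG00000032482, chr9:110243783-110262576) had the same pattern at a lower level. It encodes a membrane proteoglycan best known from the developing brain. CPM values were lowest at 24.8, median 36.8 and highest at 40.7 CPM in PSC libraries, 0.75, 2.65 and 4.02 CPM in S100β-GFP+ libraries and 0.175, 2.22 and 4.87 CPM in NG2-dsRed+ libraries. Every PSC library lay above every other library, and the S100β-GFP+ and NG2-dsRed+ ranges overlapped. PSCs had 14.5-fold more than S100β-GFP+ cells (log2 fold change 3.85, SE 0.35, adjusted p = 2.65e-10 in edgeR) and 15.3-fold more than NG2-dsRed+ cells (3.93, SE 0.32, adjusted p = 3.5e-11). The difference between the single-labelled groups was 0.08 (SE 0.34, adjusted p = 0.887).

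Cspg4 (ENSMUSG00000032911, chr9:56865033-56899870) is the gene whose promoter drove dsRed in the sort, so its level in the dsRed+ and dsRed- groups describes the sort and was not tested. NG2 is a large membrane proteoglycan of pericytes and glial precursors. The level was lowest at 503, median 718 and highest at 965 CPM in PSC libraries and 487, 667 and 890 CPM in NG2-dsRed+ libraries. The 2 dsRed+ groups overlapped over nearly the whole range, with means of 689 ± 132 CPM (SD, n = 9) and 665 ± 138 CPM (SD, n = 10). Their difference was 0.05 on the log2 scale (SE 0.23, adjusted p = 0.877 in edgeR).

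S100β-GFP+ libraries held Cspg4 at 34.5 to 148 CPM (median 53.5), below every dsRed+ library. Libraries 22, 17 and 14 were the highest of them, at 148, 123 and 74.3 CPM. The same 3 libraries had 1363, 2663 and 719 CPM on 8 endothelial markers, against 42.4 to 131 CPM in the other 5, and 1231, 1500 and 898 CPM on 8 pericyte and smooth muscle markers, against 204 to 805 CPM. The part of these cells in the Cspg4 level was not tested.

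Promoter sequence is shown for Ptprz1 and Ncan, which have an entry and were higher in PSCs than in both groups with and without library 31. For Ncan the result without library 31 comes only from the fit with no filter, since it then left the filtered test. Sequence is also shown for Cspg4, whose promoter marked the sorted cells. RefSeq (GRCm38.p6) had a promoter entry for 9 of the 10 genes. Each sequence is the stretch before the first annotated exon, read 5′ to 3′ on the strand of the gene, and capitals mark the letters GGGCGG, the GC box bound by Sp1-type factors, on either strand. Ptprz1 lies at chr6:22875252-22875501 (plus strand), Ncan at chr8:70120874-70121094 (minus strand) and Cspg4 at chr9:56864854-56865032 (plus strand).
Ptprz1: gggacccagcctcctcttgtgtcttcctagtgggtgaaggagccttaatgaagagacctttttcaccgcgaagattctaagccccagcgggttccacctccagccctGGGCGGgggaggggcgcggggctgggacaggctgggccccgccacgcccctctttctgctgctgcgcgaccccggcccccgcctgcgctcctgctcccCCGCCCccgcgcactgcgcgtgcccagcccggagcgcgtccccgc
Ncan: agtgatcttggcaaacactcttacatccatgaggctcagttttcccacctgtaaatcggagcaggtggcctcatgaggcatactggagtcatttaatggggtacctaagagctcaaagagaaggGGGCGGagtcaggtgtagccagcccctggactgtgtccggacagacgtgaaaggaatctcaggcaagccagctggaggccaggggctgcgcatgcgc
Cspg4: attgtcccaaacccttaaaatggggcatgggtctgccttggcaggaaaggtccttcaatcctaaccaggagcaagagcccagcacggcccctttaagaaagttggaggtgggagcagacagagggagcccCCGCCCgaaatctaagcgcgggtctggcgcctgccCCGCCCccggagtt

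The GC box was found at 2 places in the Ptprz1 stretch, 1 in the Ncan stretch and 2 in the Cspg4 stretch. Over stretches of the same lengths in all 32851 promoter entries it was present in 32.7%, 28.7% and 20.9%. The letters ACAAAG and ACAATG, the core sites of the SOX family to which Sox10 belongs, were searched on both strands and were in none of the 3 stretches. They were present in 16.5% and 10.7% of all entries over the length of the Ptprz1 stretch. The Ptprz1 stretch was 71.6% G and C, against a median of 52.4% in all entries, and the Ncan and Cspg4 stretches were 55.7% and 60.3%. A match of letters does not show that a factor binds, and a missing match says only that the letters are not in this window.

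Ncan (ENSMUSG00000002341, chr8:70093085-70120873) was present at a few counts per library and was highest in PSCs. Neurocan is a lectican made mainly in the nervous system. Its level was lowest at 0, median 2.50 and highest at 4.93 CPM in PSC libraries (0 to 38 counts), 0, 0.458 and 1.97 CPM in S100β-GFP+ libraries (at most 12 counts), and 0 in 6 of the 10 NG2-dsRed+ libraries with 0.356 CPM (2 counts) in the highest. Library 18 was the PSC library with no count, and the other 8 lay above every NG2-dsRed+ library, while the PSC and S100β-GFP+ ranges overlapped. Ncan was 4.00-fold higher in PSCs than in the S100β-GFP+ group (log2 fold change 2.00, SE 0.67, adjusted p = 0.0155 in edgeR) and the fitted difference from NG2-dsRed+ cells was 4.32 (SE 0.74, adjusted p = 1.89e-05). As given above, Ncan passed the filter mainly through PSC libraries. A difference in favour of PSCs was thus built into its being tested, and these p-values do not account for that.

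Ncan was also higher in S100β-GFP+ cells than in the NG2-dsRed+ group (log2 fold change 2.32, SE 0.80, adjusted p = 0.0248 in edgeR). Without S100β-GFP+ library 22, which had the most genes with counts of all libraries (38568), this difference fell to 1.75 and missed the threshold (adjusted p = 0.105). Leaving out any one of the 7 PSC libraries over the filter level removed Ncan from the test.

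Vcan (ENSMUSG00000021614, chr13:89655312-89742509) was highest in S100β-GFP+ cells and did not separate PSCs from NG2-dsRed+ cells. Versican is made by fibroblasts and many other mesenchymal cells. CPM values were lowest at 6.48, median 47.2 and highest at 104 CPM in PSC libraries, 105, 144 and 197 CPM in S100β-GFP+ libraries and 16.2, 41.1 and 136 CPM in NG2-dsRed+ libraries. Every PSC library lay below every S100β-GFP+ library, as was the case for 10.3% of all genes, while the PSC and NG2-dsRed+ libraries overlapped. PSCs had 2.60-fold less Vcan than S100β-GFP+ cells (log2 fold change -1.38, SE 0.40, adjusted p = 0.00587 in edgeR), and S100β-GFP+ cells had 2.71-fold more than NG2-dsRed+ cells (1.44, SE 0.39, adjusted p = 0.00469). PSCs and NG2-dsRed+ cells differed by 0.06 (SE 0.38, adjusted p = 0.911).

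The 2 NG2-dsRed+ libraries highest in Vcan, library 28 at 136 CPM and library 35 at 128 CPM, also had the highest sums of 8 fibroblast markers of their group, 13660 and 12220 CPM, against 1755 to 7432 CPM in the other 8. Fibroblast markers summed to 17234 to 38375 CPM in the S100β-GFP+ libraries and to 490 to 2477 CPM in PSC libraries. The part of fibroblasts in the Vcan differences was not tested. An antisense gene within Vcan, Gm4117, had 1022 counts over all libraries and shared no exon with it, and the sources used here do not give the strand setting of the counting.

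Acan (ENSMUSG00000030607, chr7:79053483-79115099) was near 0 in all PSC libraries but 1. Aggrecan is the main proteoglycan of cartilage and is also found in matrix around neurons. PSC libraries 4, 6 and 20 had no count, libraries 12, 18, 23, 34 and 36 had 0.104, 0.175, 0.783, 2.20 and 2.42 CPM, and library 31 had 285 CPM (1992 counts). The level was lowest at 0, median 0.965 and highest at 3.75 CPM in S100β-GFP+ libraries and 0.701, 3.65 and 6.31 CPM in NG2-dsRed+ libraries. Library 31 alone lay above the other groups, and 5 PSC libraries lay below every NG2-dsRed+ library.

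With library 31 in the fit, Acan was called higher in PSCs than in the S100β-GFP+ group (log2 fold change 4.43, SE 1.37, adjusted p = 0.00871 in edgeR) and than in the NG2-dsRed+ group (3.23, SE 1.15, adjusted p = 0.0235). Without it the mean of the other 8 PSC libraries was 0.711 ± 1.02 CPM (SD, n = 8). The difference from NG2-dsRed+ cells then turned to -2.26 (SE 0.79, adjusted p = 0.0216), past the threshold in the other direction, and that from S100β-GFP+ cells turned to -1.05 (SE 0.82, adjusted p = 0.306). With library 31 kept, DESeq2 gave -0.85 (adjusted p = 0.416) and limma-voom -1.40 (adjusted p = 0.342) relative to the S100β-GFP+ group. Relative to the NG2-dsRed+ group they gave -2.01 (adjusted p = 0.02) and -3.02 (adjusted p = 0.0108). The direction of Acan in PSCs thus turned with library 31 in edgeR. DESeq2 at its default settings can replace outlying counts in groups of this size, and limma-voom was run with sample quality weights. Without libraries 18 and 31 DESeq2 gave -0.88 and -2.06, close to its values with them. These fits therefore do not show a dependence on the test apart from library 31.

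Bcan (ENSMUSG00000004892, chr3:87987531-88000230) passed the filter in no comparison. Brevican is a lectican of the brain. It had 93 counts over the 9 PSC libraries, of which 76 were in library 18 (13.3 CPM), and the other PSC libraries lay between 0 and 0.631 CPM. S100β-GFP+ cells had 65 counts, of which 45 were in library 33 (9.99 CPM), and NG2-dsRed+ cells had 18 counts with at most 0.809 CPM. In PSCs and in S100β-GFP+ cells a single library held most of the counts. In DESeq2 with all libraries, Bcan differed between these groups by -0.09 on the log2 scale (SE 1.21, adjusted p = 0.966). Without PSC libraries 18 and 31 the difference was -3.03 (SE 1.18, adjusted p = 0.0289). That fit left out the high library of PSCs but kept S100β-GFP+ library 33, so its call rests on a one-sided exclusion. In the same fit the median of all genes was -0.996 and 5843 of the 10025 called genes were lower.

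Hapln1 (ENSMUSG00000021613, chr13:89539796-89611652) resembled Acan in its high library but not in the rest. PSC library 31 had 217 CPM (1518 counts), library 18 had no count, and the other 7 lay between 0.730 and 5.89 CPM. Its level was lowest at 0, median 0.257 and highest at 1.55 CPM in S100β-GFP+ libraries and 0, 0.438 and 2.13 CPM in NG2-dsRed+ libraries. Apart from library 31, libraries 34, 23, 6 and 36 lay above every S100β-GFP+ library, and 23, 6 and 36 above every NG2-dsRed+ library. With all libraries the fitted differences were 5.68 (SE 1.27, adjusted p = 5e-04 in edgeR) from S100β-GFP+ cells and 5.21 (SE 1.10, adjusted p = 0.000282) from NG2-dsRed+ cells. Hapln1 too passed the filter mainly through PSC libraries, which these p-values do not account for.

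Without library 31 Hapln1 did not pass the filter. With no filter and without that library, it was still higher in PSCs than in the S100β-GFP+ group (log2 fold change 2.13, SE 0.79, adjusted p = 0.034 in edgeR), while the difference from NG2-dsRed+ cells was 1.62 (SE 0.71, adjusted p = 0.112) and missed the threshold. Without libraries 18 and 31 both differences passed (2.31, adjusted p = 0.00964, and 1.88, adjusted p = 0.0191 in edgeR). Library 18 was the PSC library with no Hapln1 count, and the mean of the 7 PSC libraries left was 2.45 CPM. These 2 calls therefore rest on a one-sided exclusion. The mean of the 8 PSC libraries other than 31 was 2.14 ± 1.89 CPM (SD, n = 8).

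**Figure D2:**
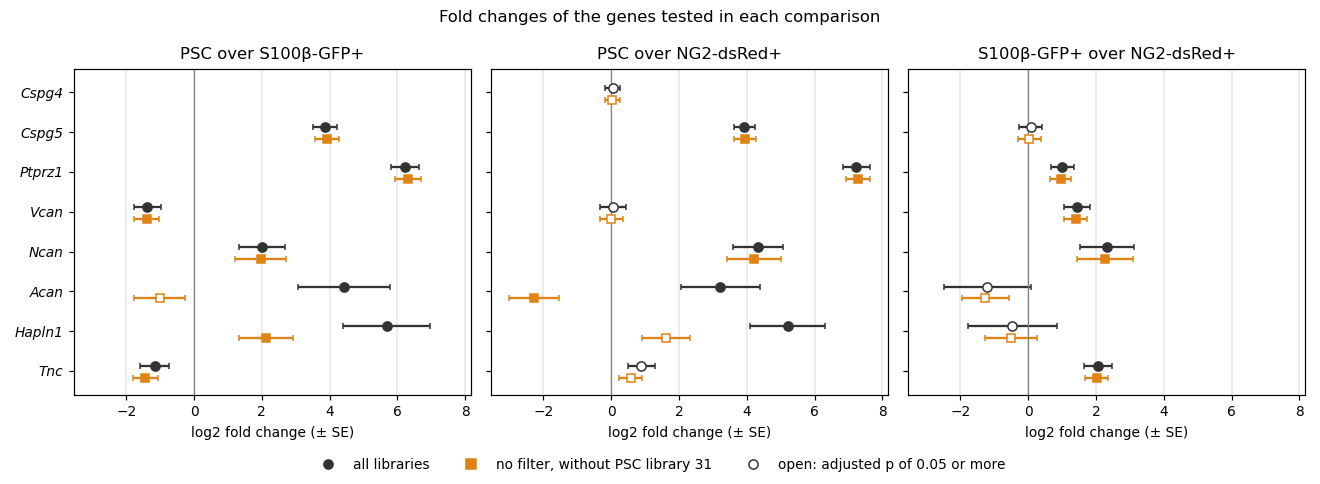
Log2 fold changes with their standard errors (horizontal axis) for the 8 genes that passed the filter, in each of the 3 comparisons. Circles come from all libraries and squares from a fit with no filter and without PSC library 31, open symbols have an adjusted p of 0.05 or more, and Cspg4 is shown only between the dsRed+ groups. Acan changes sign and Hapln1 shrinks without library 31, from 4.43 to -1.01 and from 5.68 to 2.13 against S100β-GFP+ cells, while Cspg5, Ptprz1 and Ncan stay close to their first values.

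Library 31 held cartilage genes at levels not seen in the other PSC libraries. Col2a1, the main collagen of cartilage, was at 3859 CPM (26982 counts), against at most 14.0 CPM in the other 8. Comp was at 258 CPM, Col9a1 at 196 CPM, Chad at 127 CPM and Matn3 at 99.1 CPM, against at most 4.28, 4.00, 1.71 and 0.389 CPM. Of the 10 markers of the list, the tendon gene Mkx alone had no count in this library. Its Schwann cell markers summed to 1720 CPM, within the range of the other PSC libraries. The part of cartilage cells in the Acan and Hapln1 levels was not tested.

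**Figure D3:**
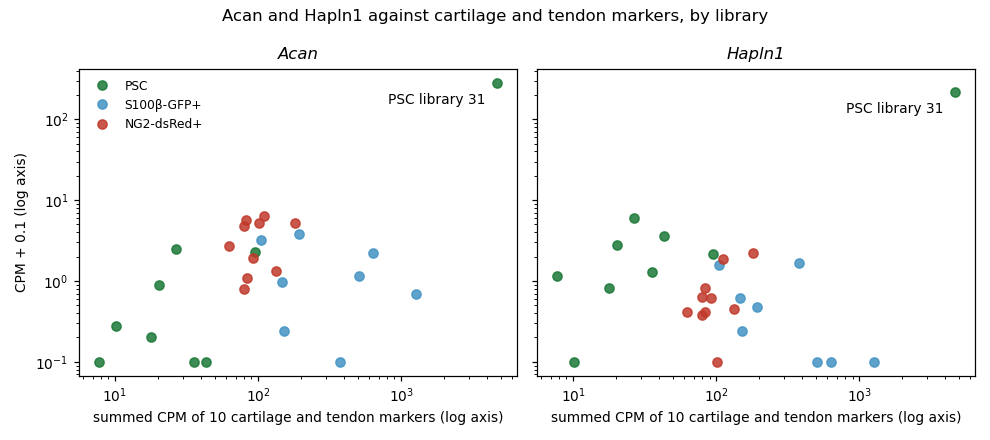
Each point is 1 library, with the summed CPM of 10 cartilage and tendon markers on the horizontal axis and CPM plus 0.1 of Acan (left) or Hapln1 (right) on the vertical axis, both log axes. PSC library 31 lies alone at the upper right in both panels, at 4694 CPM of markers with 285 CPM of Acan and 217 CPM of Hapln1.

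Tnc (ENSMUSG00000028364, chr4:63959785-64047015) was highest in S100β-GFP+ cells. Tenascin-C is a matrix glycoprotein of tendon and of injured or growing tissue. CPM values were lowest at 6.98, median 15.4 and highest at 46.5 CPM in PSC libraries, 19.4, 29.0 and 103 CPM in S100β-GFP+ libraries and 4.48, 8.91 and 25.7 CPM in NG2-dsRed+ libraries. All 3 ranges overlapped, with 6 of 9 PSC libraries below every S100β-GFP+ library. S100β-GFP+ cells had 4.14-fold more than NG2-dsRed+ cells (log2 fold change 2.05, SE 0.41, adjusted p = 0.000218 in edgeR) and PSCs had 2.24-fold less than S100β-GFP+ cells (-1.16, SE 0.41, adjusted p = 0.0217). The difference between PSCs and NG2-dsRed+ cells, 0.88 (SE 0.40, adjusted p = 0.0715), missed the threshold. It ran from 0.60 to 1.14 over the 27 fits that each left out 1 library and passed in 4 of them, without NG2-dsRed+ library 7 (1.14, adjusted p = 0.0189) or without PSC library 12, 20 or 36. It also passed under DESeq2 (0.93, adjusted p = 0.0497).

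The highest S100β-GFP+ libraries for Tnc were 33 and 1, at 103 and 80.3 CPM, while the other 6 lay between 19.4 and 33.0 CPM. Library 1 also had the highest cartilage and tendon marker sum of its group, 1266 CPM, with Tnmd, a tendon gene, at 170 CPM, whereas library 33 had 377 CPM. The difference from PSCs missed the threshold without library 1 (-0.97, adjusted p = 0.0621) and without library 33 (-0.84, adjusted p = 0.0898). The highest PSC libraries for Tnc were 31 and 18, at 46.5 and 37.3 CPM. The part of tendon cells in the Tnc levels was not tested. Exons of Tnc overlap those of 8030451A03Rik on the other strand, which had 153 counts over all libraries.

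Tnr (ENSMUSG00000015829, chr1:159523769-159931729) was close to absent from the counts. Tenascin-R is known from oligodendrocytes and neurons of the brain. It had 10 counts in 2 of the 9 PSC libraries, 52 counts in 5 of the 8 S100β-GFP+ libraries and 31 counts in 9 of the 10 NG2-dsRed+ libraries. The 3 highest S100β-GFP+ libraries were 22, 17 and 14, at 4.28, 2.36 and 1.59 CPM. In a fit with no filter Tnr was lower in PSCs than in the S100β-GFP+ group (log2 fold change -2.81, SE 1.02, adjusted p = 0.0301 in edgeR), but in that fit the median of all genes was -0.97 and 12649 of the 16556 called genes were lower. Its exons overlap an antisense gene that had no count.

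Levels of different genes were compared per length, as CPM per kilobase of annotated exon. Summed over the 7 core protein genes, the level was 122 ± 18.9 CPM per kb (SD, n = 9) in PSCs, 18.0 ± 4.31 in S100β-GFP+ cells (n = 8) and 60.7 ± 10.8 in NG2-dsRed+ cells (n = 10). The level of Cspg4 is part of the sort and so enters this order and the shares below. Without Cspg4 the sum of the other 6 was 64.3 ± 17.7 CPM per kb in PSCs, 12.1 ± 1.92 for the S100β-GFP+ group and 4.95 ± 3.27 for the NG2-dsRed+ group, which turned the order of the single-labelled groups round. The lowest PSC library then stood at 25.3 CPM per kb and the highest of the other groups at 14.6. In PSCs Cspg4 made up 48.1 ± 10.5% and Ptprz1 42.2 ± 11.1% of the sum, and the ranges of the 2 shares overlapped. In NG2-dsRed+ cells Cspg4 alone made up 91.6 ± 5.66%. In S100β-GFP+ cells Vcan made up 60.0 ± 13.9% and Cspg4 31.2 ± 11.4%. Acan made up 25.0% in PSC library 31 and Bcan 3.83% in library 18, against group means of 2.85% and 0.463%.

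Set among 15311 genes by the mean per length in PSCs, Cspg4 lay above 95.9% and Ptprz1 above 95.4% of genes, Vcan above 56.1%, Cspg5 above 52.1%, Tnc above 43.0% and Ncan above 9.27%. Ptprz1 lay above 14.8% of genes in S100β-GFP+ cells and above 8.94% in NG2-dsRed+ cells, and Cspg5 above 3.17% and 5.90%. Vcan lay above 78.3% in S100β-GFP+ cells.

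**Figure D4:**
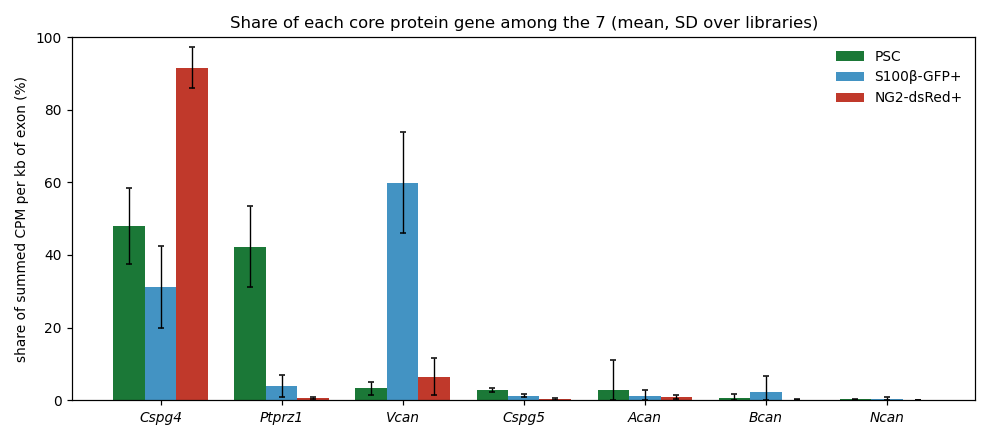
Mean share of each of the 7 core protein genes in their summed CPM per kb of exon (vertical axis, %), by group, with error bars of 1 SD over 9, 8 and 10 libraries whose lower end is drawn no lower than 0. Cspg4 and Ptprz1 share the sum in PSCs (48.1% and 42.2%), Vcan leads in S100β-GFP+ cells (60.0%) and Cspg4 in NG2-dsRed+ cells (91.6%).

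The genes most like each member over the 27 libraries were listed as a description, by Pearson's r of log2 CPM among 13002 protein-coding genes. The libraries fall into 3 cell types, and r follows the differences between them. Ptprz1 was closest to Ncam1, a neural adhesion molecule (r = 0.987), Bche (0.979) and Unc80 (0.977), and Cspg5 to Aspa (0.956), Trim2 (0.954) and Tnik (0.954). Both Ncam1 and Bche are named by the study as enriched in PSCs from its libraries. Ptprz1 and Cspg5 had r = 0.942 with each other. Cspg4 was closest to Atp1b2 (0.977), Mcam, an adhesion molecule of pericytes and endothelium (0.965), and Daam2 (0.964). Vcan was closest to Peg3 (0.904), Ssc5d (0.875) and P4ha3, a collagen-modifying enzyme (0.862), Tnc to Kcna3 (0.885), Arhgap22 (0.853) and Pgm3 (0.843), and Ncan to Plppr1 (0.898), Ikzf2 (0.872) and Scd2 (0.868). Acan was closest to Stk26 (0.719), Scube1 (0.717) and Col2a1 (0.710), and Hapln1 to Cnmd, a cartilage gene (0.736), Col9a2 (0.715) and Ift88 (0.703).

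Enzymes that build the chondroitin sulfate chain moved in both directions, with 3 of 22 tested genes higher and 6 lower in PSCs than in the S100β-GFP+ group. Against NG2-dsRed+ cells 6 were higher and 7 lower. Among all genes 22.9% were higher and 24.1% lower in the first comparison, and 20.9% and 23.1% in the second. The medians of the list, -0.15 and -0.06 on the log2 scale, lay near those of all genes, 0.04 and 0.02. Xylt1, a xylosyltransferase that starts the chain, was at 134 ± 34.0 CPM in PSCs (SD, n = 9), above every library of the other groups, at 18.1 ± 4.20 and 22.1 ± 8.25 CPM. It was 7.38-fold higher than in S100β-GFP+ cells (log2 fold change 2.88, SE 0.23, adjusted p = 2.06e-11 in edgeR) and 6.05-fold higher than in the NG2-dsRed+ group (2.60, adjusted p = 2.81e-11). Xylt1 is also in the study's PSC-enriched list.

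Sulfation enzymes differed among themselves. Chst3, which adds sulfate at the 6-position, was at 16.2 ± 5.56 CPM in PSCs, 1.63 ± 1.02 CPM in S100β-GFP+ cells and 8.75 ± 2.37 CPM in NG2-dsRed+ cells, and was higher in PSCs in both comparisons (log2 fold changes 3.33 and 0.89, adjusted p = 9.73e-10 and 0.00716). Chst7, another 6-sulfotransferase, named after its values were seen, was at 7.12 CPM in PSCs, 9.64 CPM in S100β-GFP+ cells and 16.7 CPM in NG2-dsRed+ cells. It was lower than in the NG2-dsRed+ group (-1.24, adjusted p = 4.62e-05 in edgeR) and did not pass against S100β-GFP+ cells (-0.43, adjusted p = 0.137). Chst12, a 4-sulfotransferase, and Chst15, which adds a further sulfate to 4-sulfated chains, were lower in PSCs in both comparisons. Chst12 was at 10.7, 44.5 and 17.0 CPM in the 3 groups and Chst15 at 4.59, 15.8 and 28.5 CPM. Ust, which sulfates the uronic acid, was lower than in S100β-GFP+ cells (-0.98, adjusted p = 0.0305) and higher than in the NG2-dsRed+ group (1.98, adjusted p = 6e-05).

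Dse, an epimerase that turns chondroitin sulfate into dermatan sulfate, was lowest in PSCs. Its level was 2.23 ± 1.33 CPM in PSCs, 40.9 ± 9.14 CPM in S100β-GFP+ cells and 22.4 ± 5.28 CPM in NG2-dsRed+ cells, with every PSC library below all others. The fold changes were -4.18 (SE 0.33, adjusted p = 1.52e-11 in edgeR) and -3.31 (SE 0.31, adjusted p = 7.58e-10) on the log2 scale. Dsel, another such epimerase, named after its values were seen, did not share this pattern. It was at 47.7 CPM in PSCs, 50.9 CPM in S100β-GFP+ cells and 27.5 CPM in NG2-dsRed+ cells. Dsel did not pass against S100β-GFP+ cells (-0.09, adjusted p = 0.729 in edgeR) and was higher than in the NG2-dsRed+ group (0.79, adjusted p = 0.000825). In S100β-GFP+ cells against NG2-dsRed+ cells 5 of the 22 enzymes were higher and 5 lower, against 18.1% and 15.2% of all genes. Ust (2.96) and Chst12 (1.39) were the highest and Chst3 (-2.44) and Csgalnact1 (-1.09) the lowest.

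**Figure D5:**
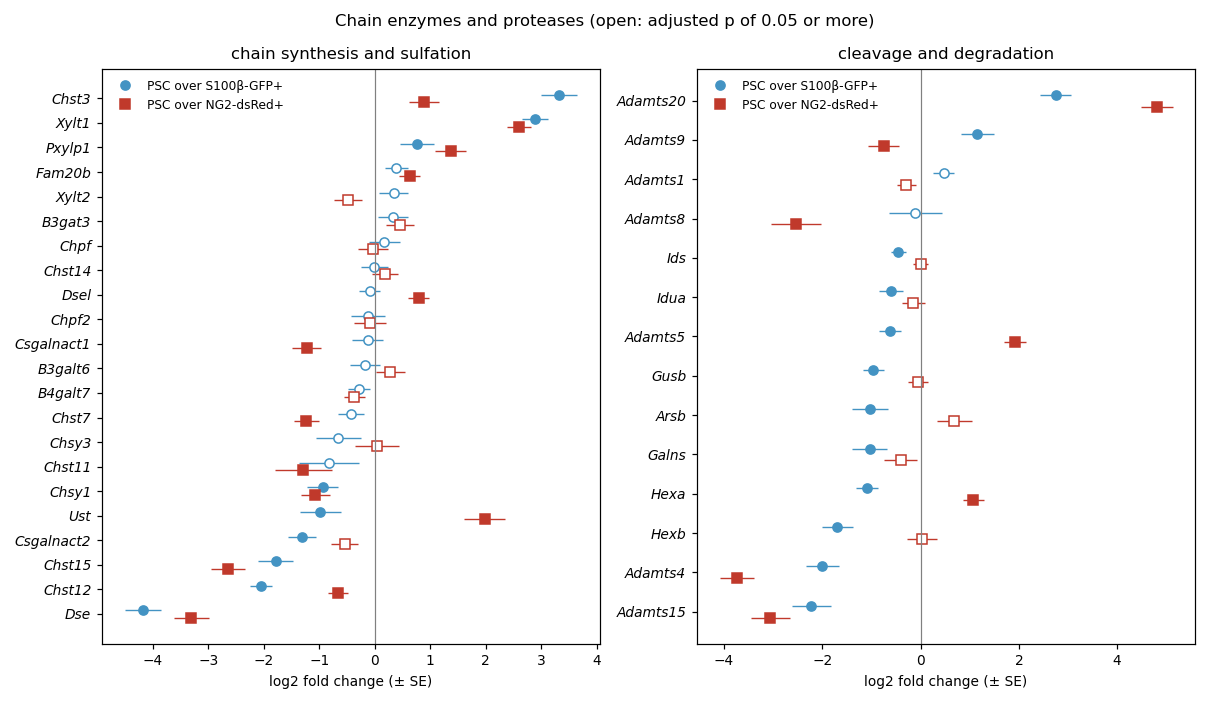
Log2 fold changes with standard errors (horizontal axis) of PSCs over S100β-GFP+ cells (circles) and over NG2-dsRed+ cells (squares) for 22 chain synthesis genes (left) and 14 genes of cleavage and degradation (right), open where the adjusted p is 0.05 or more. Xylt1 and Chst3 on the left and Adamts20 on the right lie to the right of 0 in both comparisons, and Dse lies farthest to the left of the chain synthesis genes in both.

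Among binding partners of the proteoglycans and tenascins, 10 of 17 tested genes were higher and 5 lower in PSCs than in the S100β-GFP+ group, and 9 were higher and 6 lower than in the NG2-dsRed+ group. Over all genes 47% and 44% were called. The median log2 fold changes of the list were 0.66 and 1.02, against 0.04 and 0.02 for all genes. Ptn, the pleiotrophin ligand of Ptprz1, was at 1135 ± 573 CPM in PSCs, 90.3 ± 63.1 CPM in S100β-GFP+ cells and 33.7 ± 35.7 CPM in NG2-dsRed+ cells, with no overlap (log2 fold changes 3.65 and 5.07, adjusted p = 4.98e-06 and 1.45e-08 in edgeR). Ncam1 was at 574 ± 84.4 CPM in PSCs against 17.8 ± 4.96 and 12.7 ± 2.19 CPM (5.02 and 5.50, adjusted p = 8.18e-18 and 7.78e-20). The study had already named Ncam1 as enriched in PSCs from its libraries and examined it by qPCR, so its direction here is not independent evidence. Ptprs and Ptprf, receptors of the chains named for their role after their values were seen, were 2.59-fold and 2.81-fold higher than in S100β-GFP+ cells. They were 2.97-fold and 3.03-fold higher than in the NG2-dsRed+ group. Rtn4rl1, also listed as a receptor, went the other way, as given below.

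Lower in PSCs was Fn1 (fibronectin), at 60.8 CPM against 4093 CPM in S100β-GFP+ cells and 503 CPM in NG2-dsRed+ cells. Rtn4rl1, a receptor of the Nogo family that also binds the chains, was lower too, at 1.26 CPM against 16.3 and 24.7 CPM. The log2 fold changes were -6.07 and -3.05 for Fn1 and -3.68 and -4.28 for Rtn4rl1. In S100β-GFP+ cells against NG2-dsRed+ cells 8 of the 17 were higher and 2 lower, against 18.1% and 15.2% of all genes. Fn1 (3.02) and Fbln1 (2.85) were the highest and Itga8 (-3.16) and Itgb1 (-1.30) the lowest. Fn1 is abundant in fibroblasts, whose marker sums are given for Vcan, and the part of fibroblasts in the Fn1 differences was not tested.

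Proteases of lecticans and lysosomal enzymes were mostly lower in PSCs than in the S100β-GFP+ group, with 2 of 14 higher and 10 lower and a median of -0.79, where 22.9% of all genes were higher and 24.1% lower. Against NG2-dsRed+ cells 3 were higher and 4 lower, with a median of -0.10, close to the 20.9% and 23.1% of all genes. Adamts20 was at 55.2 ± 10.8 CPM in PSCs, 8.24 ± 4.33 CPM in S100β-GFP+ cells and 1.95 ± 1.01 CPM in NG2-dsRed+ cells, with every PSC library above all others (log2 fold changes 2.75 and 4.80, adjusted p = 2.29e-08 and 7.05e-13 in edgeR). It is also in the study's PSC-enriched list. Adamts9 was higher than in S100β-GFP+ cells (1.15) and lower than in the NG2-dsRed+ group (-0.75). Adamts4 and Adamts15, proteases that cut lecticans, were lower in both comparisons (log2 fold changes -2.00 and -3.74 for Adamts4 and -2.22 and -3.05 for Adamts15). Adamts5, another such protease, was lower than in S100β-GFP+ cells (-0.62, adjusted p = 0.0261) and higher than in the NG2-dsRed+ group (1.91, adjusted p = 3.75e-08). In S100β-GFP+ cells against NG2-dsRed+ cells 7 of the 14 were higher and 4 lower, against 18.1% and 15.2% of all genes. Adamts5 (2.54) and Hexa (2.15) were the highest and Adamts8 (-2.42) and Adamts9 (-1.91) the lowest.

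Other core proteins that can carry chondroitin or dermatan sulfate were mostly lower in PSCs. Of 10 tested genes, 8 were lower than in S100β-GFP+ cells and the other 2 did not pass the threshold. Against the NG2-dsRed+ group 6 were lower and 1 higher. Of all genes 24.1% and 23.1% were lower. The medians of the list were -3.73 and -2.73. Medians of the fibroblast marker sums were 949 CPM in PSC, 26954 CPM in S100β-GFP+ and 6789 CPM in NG2-dsRed+ libraries. The part of fibroblasts in these differences was not tested. Dcn (decorin), a small fibroblast proteoglycan named after its values were seen, was at 328 ± 86.6 CPM in PSCs, 4141 ± 1369 CPM in S100β-GFP+ cells and 2344 ± 1537 CPM in NG2-dsRed+ cells. Bgn, also named after its values were seen, did not share this pattern, at 811, 800 and 494 CPM in the same order. It passed the threshold in neither comparison of PSCs (log2 fold changes 0.02 and 0.71, adjusted p = 0.966 and 0.0547 in edgeR). The lowest fold changes against S100β-GFP+ cells were those of Cd74 (-9.57) and Spock3 (-6.54), and against NG2-dsRed+ cells those of Prg4 (-4.09) and Esm1 (-3.45). Cd74, a gene of antigen-presenting cells, was at 6328 CPM in S100β-GFP+ cells, whose leukocyte markers summed to 380 to 3362 CPM, against 3.11 to 17.1 CPM in PSCs, and the part of leukocytes in it was not tested. Cd44, a hyaluronan receptor, was the one higher than in the NG2-dsRed+ group (0.71, adjusted p = 0.00847). In S100β-GFP+ cells against NG2-dsRed+ cells 5 of the 10 were higher and 1 lower, against 18.1% and 15.2% of all genes. Cd74 (8.47) and Spock3 (6.00) were the highest and Esm1 (-2.63) the lower one.

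Of the hyaluronan genes, 2 of 8 tested were higher and 1 lower in PSCs than in the S100β-GFP+ group, and 2 were higher and 3 lower than in the NG2-dsRed+ group. The medians were 0.06 and -0.48, against 0.04 and 0.02 for all genes. Among all genes 22.9% were higher and 24.1% lower in the first comparison, and 20.9% and 23.1% in the second. Has1, a hyaluronan synthase, was at 2.55 ± 2.41 CPM in PSCs, 379 ± 167 CPM in S100β-GFP+ cells and 11.8 ± 7.65 CPM in NG2-dsRed+ cells (log2 fold changes -7.21 and -2.21, adjusted p = 2.72e-12 and 0.000105 in edgeR). Has2, a second synthase, was at 89.5 ± 32.0 CPM in PSCs, higher than in the NG2-dsRed+ group, at 15.8 ± 16.1 CPM (2.50, adjusted p = 1.48e-05). Hmmr was higher in PSCs in both comparisons (1.32 and 2.34), Hyal1 was higher than in S100β-GFP+ cells (0.91), and Has3 (-2.92) and Hyal2 (-1.55) were lower than in the NG2-dsRed+ group. In S100β-GFP+ cells against NG2-dsRed+ cells Has1 (5.01) and Has2 (1.93) were higher and Hyal2 (-1.31) lower.

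Among link proteins and tenascins outside the 10 genes, 2 of 5 passed the filter. Tnxb (tenascin-X), which is made by connective tissue cells, was at 25.0 ± 18.0 CPM in PSCs, 658 ± 333 CPM in S100β-GFP+ cells and 102 ± 46.5 CPM in NG2-dsRed+ cells, and was lower in PSCs in both comparisons (log2 fold changes -4.72 and -2.03, adjusted p = 2.54e-10 and 5.5e-05 in edgeR). S100β-GFP+ cells had more Tnxb than NG2-dsRed+ cells (2.69). Hapln3 was highest in NG2-dsRed+ cells, at 5.00 ± 1.69 CPM, against 0.481 ± 0.913 CPM in PSCs and 0.681 ± 0.776 CPM in S100β-GFP+ cells (-3.29 and -2.84, adjusted p = 0.000147 and 0.00161).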

How the data were processed

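RNA-seq libraries of 27 sorted cell samples were analysed (9 PSC, 8 S100β-GFP+ and 10 NG2-dsRed+), grouped by the labels of the series. A further 9 of the 36 labelled libraries were not analysed here. RNA was isolated with the PicoPure kit and libraries were made with SMART-Seq v4. According to the methods and the submitters' processing notes, the authors used ea-utils and Btrim for trimming, HISAT2 for alignment to GRCm38 and HTSeq for counting per gene, with versions and strand setting not given in the sources used here. The deposited values are raw counts per gene. Of the 52636 identifiers, 52403 (99.56%) were found in GENCODE M21.

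Counts were scaled by TMM and filtered with filterByExpr (minimum count 10), which left 15330 genes, and groups were compared in edgeR 4.0.16 (R 4.3.3) with the quasi-likelihood test, in one fit with no covariate, with two-sided p-values adjusted by Benjamini and Hochberg over all genes. Cspg4 was not tested between dsRed+ and dsRed- groups. DESeq2 1.42.0, limma 3.58.1, no filter, other libraries and a term for the part of each library taken by Lars2, Gm23935 and Gm15564 (3.64 to 40.0% per library) were tried as alternatives. The scripts were tested on simulated data. No 2 libraries of a group were alike within sampling noise (109 pairs, 0 identical, lowest chi-square per degree of freedom 8.92).

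The 10 genes and all gene lists were chosen with earlier results of these data known. One gene of the Schwann cell marker list is not reported here and was left out of its sums. Named were the 10 genes, per list and comparison the 2 highest and 2 lowest fold changes past the threshold, and per gene the 3 most correlated protein-coding genes (log2 CPM with a prior count of 2). Promoter sequences came from RefSeq (GRCm38.p6).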

Additional observations from a re-analysis of the deposited data

Results flagged for a closer look

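Each of the 10 genes was examined in each of the 3 groups for a library that lay far from its nearest neighbour. The gap was set against the range of the group (Dixon's criterion at 95%), and 9 of 30 gene and group pairs passed. The rate of about 1 in 20 that belongs to this criterion holds for normally distributed values. Here the values were CPM, and Tnr and Bcan had few or no counts in most libraries. The 9 of 30 can therefore not be read as an excess over chance. The pairs are also not independent, since libraries recur among them.

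PSC library 31 stood apart for Acan (285 CPM, next 2.42) and Hapln1 (217 CPM, next 5.89). PSC library 18 stood apart for Bcan (13.3 CPM, next 0.631) and, at the low end, for Ptprz1 (266 CPM, next 612). S100β-GFP+ library 33 stood apart for Bcan (9.99 CPM, next 1.97) and Ptprz1 (26.9 CPM, next 13.8). Tnc stood apart in NG2-dsRed+ library 7 (25.7 CPM, next 14.4). Tnr stood apart in NG2-dsRed+ library 35 (2.43 CPM, 15 counts) and in PSC library 34 (1.04 CPM, 8 counts).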

How the results depend on the processing

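No paired analysis was possible because the replicate numbers in the labels number the libraries of the whole series and the groups share none. Libraries of different groups from the same mouse, if there were any, were treated as independent. Of the values for single genes under alternatives other than leaving out 1 library, 194 kept direction and side of the threshold, 6 lost and 2 gained the threshold and 12 changed sign. These counts leave out genes that did not pass the filter when only the groups compared were fitted. Those were Acan and Hapln1 in PSCs against S100β-GFP+ cells. In PSCs against NG2-dsRed+ cells and between the single-labelled groups they were Ncan and Hapln1. Against S100β-GFP+ cells, Acan in PSCs was -0.85 on the log2 scale under DESeq2, -1.40 under limma-voom, -0.86 in edgeR and -0.88 in DESeq2 without libraries 18 and 31, and -1.01 with no filter and without 31. Against NG2-dsRed+ cells it was -2.01, -3.02, -2.04, -2.06 and -2.28 in the same order. Vcan in PSCs against NG2-dsRed+ cells was -0.19 with the Lars2 share as a term, and Cspg5 between the single-labelled groups was -0.34 without S100β-GFP+ libraries 14, 17 and 22. The last 2 did not pass the threshold in either form, and the cause of these changes was not tested. The fits that leave out libraries 18 and 31, or 31 with no filter, were chosen after seeing the data.

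In PSCs, Hapln1 against NG2-dsRed+ cells missed the threshold under DESeq2 (1.56, adjusted p = 0.0745) and with no filter and without 31 (1.62, 0.112), as did Acan against NG2-dsRed+ cells (2.69, 0.0554) and Tnc against S100β-GFP+ cells (-0.71, 0.143) with the share term. Between the single-labelled groups, Ptprz1 missed it under limma-voom (0.45, 0.259) and Ncan without libraries 14, 17 and 22 (1.13, 0.391). Tnc against NG2-dsRed+ cells passed under DESeq2 (0.93, 0.0497) and with the share term (1.27, 0.00638).

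With no filter 16556 genes were called between PSCs and S100β-GFP+ cells (15005 also without library 31), against 7198, and 10586 (10954) between the single-labelled groups, against 5099. The median log2 fold change of all genes in these comparisons then moved from 0.04 to -0.97 and from -0.02 to 0.78, and the share of called genes that were higher from 48.8% to 23.6% and from 54.3% to 77.4%. Under DESeq2 these medians were -0.90 and 0.58. Of the link proteins and tenascins outside the 10 genes, 4 instead of 1 were called in PSCs against S100β-GFP+ cells under DESeq2, with no filter, and in both added forms of these. Between the single-labelled groups, 5 instead of 3 hyaluronan genes were called under DESeq2 (also without 18 and 31) and limma-voom, and 11 (DESeq2 without 18 and 31) or 10 (no filter without 31) instead of 6 other core proteins. Of the 10 genes, 3 instead of 5 were called in PSCs against NG2-dsRed+ cells when only the groups compared were fitted, since Ncan and Hapln1 then left the filtered test.

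Leaving out each library in turn gave 4 to 7 of the 10 genes against S100β-GFP+ cells (4 without library 31), 3 to 6 against NG2-dsRed+ cells (3 without PSC 6, 23, 31 or 34), 1 to 2 for the link protein and tenascin list and 3 to 5 for the hyaluronan list. Acan ran from -1.05 to 4.83 and from -2.26 to 3.44, Cspg4 against NG2-dsRed+ cells from -0.019 to 0.16, Vcan from -0.048 to 0.40, Tnc against S100β-GFP+ cells from -1.45 to -0.84 and Cspg5 between the single-labelled groups from -0.056 to 0.31. Ncan passed the filter in 20 and Hapln1 in 19 of these 27 fits, and each fit that lost them left out a library over the filter level. Ncan, Bcan and Tnr had a few counts in most libraries, and the part of depth in their differences was not tested.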
